A study of Arabidopsis thaliana with 4 samples.

Results

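The alpha-expansins and the xyloglucan endotransglucosylase/hydrolases (XTHs) are cell wall proteins of Arabidopsis, and the regions of KANADI1 (KAN1) chromatin immunoprecipitation beside 41 of their genes are described here. The members are 19 alpha-expansin (EXPA) genes and 22 XTH genes, a part of each family chosen with earlier results of these data known, and every called region that overlapped a member or named it as the closest gene on either side was taken. Of the 41 genes, 39 were named by a region, and 132 of the 22103 regions on the 5 chromosomes named at least 1 of them. EXPA13 and EXPA18 were named by none. All 4 libraries came from Arabidopsis thaliana of the Columbia-0 ecotype, kept for 10 days in liquid medium and given dexamethasone (DEX) for 45 min. The 2 KAN1-FLAG libraries were precipitated with anti-FLAG beads from 35S:FLAG-GR-KAN1 plants, and the 2 control libraries are labelled as input, whereas the study's methods describe only 1 control library, made from wild-type Col-0 chromatin. Which of both that library is was not stated, and the reads of both are summed here. The 35S promoter drives the fusion in most cells of the plant, so the regions are those of an over-expressed protein in whole plants and not of KAN1 in the abaxial tissues where the gene is normally active.

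Growing plant cells are held in a wall of cellulose microfibrils tied together by xyloglucan and other polysaccharides. Alpha-expansins loosen this network without cutting its polymers, most strongly at acid pH, and proton pumps of the plasma membrane acidify the wall. XTHs cut xyloglucan chains and join the cut end to another chain or, in a few members, to water. KAN1 is a GARP-family transcription factor that specifies the lower, abaxial side of lateral organs. The glucocorticoid receptor (GR) part of the fusion keeps it outside the nucleus until DEX is added. The regions record where the protein was enriched on the DNA, and expression was not analysed here.

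For each region, the enrichment is the ratio of the reads of a KAN1-FLAG library to the summed reads of both controls, and a region is called bound here where the mean of both ratios was at least 3. Reads over all regions came to 2082943 and 1036664 in KAN1-FLAG replicates 1 and 2, and to 661648 and 13441 in control replicates 1 and 2. Reads outside the called regions are not in the table, and library depth is therefore unknown. Control replicate 2 stands apart, with no read in 13929 regions. Without it, 20 members and 31 member regions were bound, the same counts as with it. The share of all genes with a bound region was 26.5% without it and 25.4% with it. The ratios are not scaled for depth. Replicate 1 had 2.01 times the reads of replicate 2 over the called regions, which enters every SD given between the ratios.

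The study names VGAATAW as the sequence enriched in its regions, that is GAATA after A, C or G and before A or T, spelled AGAATAA or AGAATAT, with C or G possible in place of the leading A. The sites shown are those closest to the centre of each bound region that held a site and had a member as its nearest gene, since these are the places where a described sequence and the enrichment lie beside a wall gene. Each line gives the window in TAIR10 coordinates and the strand, and the sequence from the RefSeq TAIR10.1 genome 5′ to 3′, with the motif in capitals and 10 bases on either side.
XTH24, upstream, chr4:14821230-14821256, plus strand: aaatatgaagAGAATATgtcttgtgaa
XTH31, downstream, chr3:16446248-16446274, plus strand: ataattaacaAGAATATatttctttca
XTH7, intron, chr4:17776534-17776560, plus strand: gagattgtgaAGAATAAtgataattgg
XTH7, upstream, chr4:17777641-17777667, minus strand: aaaagtacacAGAATAAattgaattct
EXPA6, downstream, chr2:12431133-12431159, minus strand: ttagaaagttAGAATAAaagaaaggaa
XTH33, upstream, chr1:3482184-3482210, minus strand: aataaaatcaAGAATAAaacagaaaat
XTH22, non-coding exon sequence upstream of XTH25, chr5:23307084-23307110, plus strand: actgactcggAGAATATaacggaacga
XTH32, downstream, chr2:15472128-15472154, plus strand: ggatcaccatAGAATATacagcataaa
XTH27, downstream, chr2:387480-387506, plus strand: atgggtccgaCGAATATtgttttaatt
EXPA8, upstream, chr2:16950694-16950720, minus strand: gtcaaaaataCGAATAAataaatcaac
EXPA5, 3′ end, chr3:11011410-11011436, minus strand: tgatatgtagCGAATATatgtgtggga

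Of the 41 members, 20 had a bound region, 48.8% of those listed and 51.3% of the 39 named, against 25.4% of the 22970 genes the table names. The 2 families differed in this count. A bound region lay beside 15 of 22 XTH genes and beside 5 of 19 EXPA genes, and the difference between the families was not tested. With the 11 XTH genes and 7 alpha-expansins outside this choice, the families stood at 16 of 33 and 5 of 26, so the shares of the members are not those of the families. The highest mean ratio per gene had a median of 3.90 over the XTH genes, 2.21 over the 17 EXPA genes named, 3.05 over both and 1.79 over all genes. The limit of 3 is fixed and the ratios are unscaled, so the counts move with the read totals of the libraries used. Without KAN1-FLAG replicate 1, 10 members were bound against 11.5% of all genes, and the median over members was 1.74 against 1.21 over all genes. With both libraries scaled to the same total, 20 members were bound against 25.4% of all genes. Since replicate 1 was almost always the higher, a ratio of at least 3 in both replicates nearly repeats the count without replicate 1. The same 11.5% of all genes reached it, and 10 members did: EXPA1, EXPA6, XTH6, XTH7, XTH18, XTH24, XTH27, XTH28, XTH30 and XTH31. Of these, only EXPA6, XTH7, XTH24 and XTH31 reached it in a region of which they were the nearest gene.

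**Figure D1:**
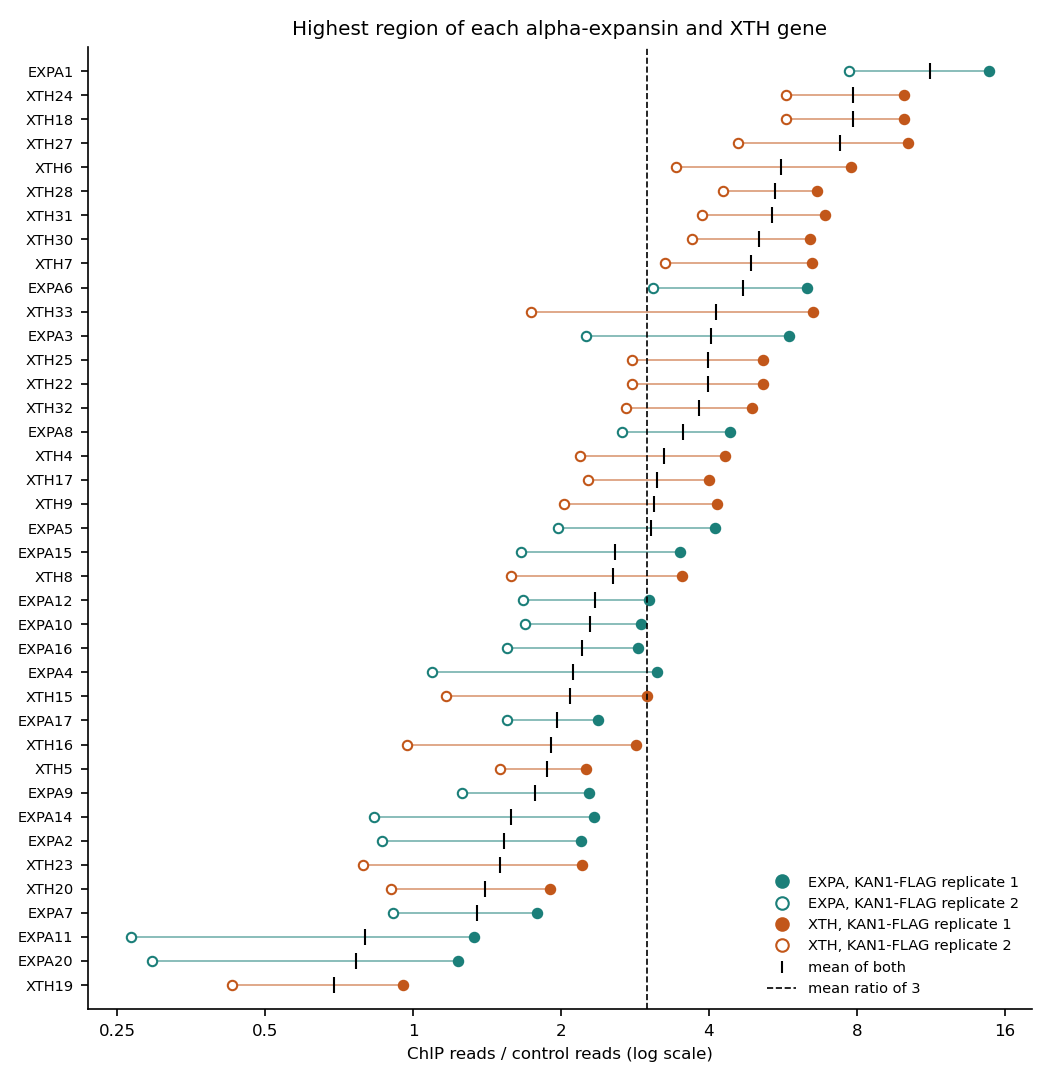
Ratio of KAN1-FLAG to control reads (log scale) in the highest region of each of the 39 members named by a region, with filled points for replicate 1, open points for replicate 2, a tick for their mean and a dashed line at a mean ratio of 3. The mean lies at or right of the line in 20 members, from EXPA1 at 11.3 to EXPA5 at 3.05, and replicate 1 is the higher of both points in each of them.

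Among the alpha-expansins, EXPA1 (AT1G69530), which is known for its action in guard cells, had the highest region of any member. The region at chr1:26135073-26135347 had 357 and 185 KAN1-FLAG reads and 23 and 1 control reads. The ratios were 14.9 in replicate 1 (95% exact interval 9.84 to 23.5, counting error only) and 7.71 in replicate 2 (5.02 to 12.3), with a mean of 11.3 ± 5.07 (SD, n = 2). By mean ratio it stood at place 19 among all regions of the table. After both KAN1-FLAG libraries were scaled to the same total, the ratios were 11.1 and 11.6, so the replicates lay close together. It lay 6626 bp upstream of EXPA1, and 2013 bp downstream of AT1G69526, which is therefore its nearest gene. Another 3 bound regions lay 7250, 7859 and 8344 bp upstream of EXPA1, with mean ratios of 4.22, 6.27 and 4.06, and a further bound region 1050 bp downstream had 6.24. With 5 bound regions of 8 named, EXPA1 had more than any other member, and in none of them was it the nearest gene.

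The other 4 bound alpha-expansins had lower ratios, and 3 of them had a bound region as its nearest gene. EXPA6 (AT2G28950) had 310 and 151 KAN1-FLAG reads against 47 and 2 control reads in a region 232 bp downstream, a mean ratio of 4.70 ± 2.29 (SD, n = 2). EXPA8 (AT2G40610) had 199 and 120 reads against 41 and 4 in a region 123 bp upstream, a mean ratio of 3.54 ± 1.24, and a second region 1948 bp upstream with 3.23. In the RefSeq gene models the centre of the first falls within EXPA8, in an exon outside the coding sequence, so its place at the start of the gene depends on the annotation. EXPA5 (AT3G29030) had 177 and 85 reads against 43 and 0 in a region that overlaps the gene, a mean ratio of 3.05 ± 1.51. EXPA3 (AT2G37640) had 186 and 72 reads against 32 and 0, a mean ratio of 4.03 ± 2.52, in a region 3326 bp downstream. That region lay 945 bp upstream of AS1 (AT2G37630), a MYB factor of leaf polarity, which is the nearer gene.

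Among the XTH genes, the highest region lay in a cluster of related genes on chromosome 4 and was shared by a pair of members. The region at chr4:14821085-14821492 lay 696 bp upstream of XTH24 (AT4G30270), first described as the meristem transcript MERI5, and 4519 bp downstream of XTH18 (AT4G30280), a gene of elongating roots. It had 519 and 299 KAN1-FLAG reads against 52 and 0 control reads. The ratios were 9.98 (95% exact interval 7.50 to 13.5) and 5.75 (4.27 to 7.88), with a mean of 7.87 ± 2.99 (SD, n = 2). A second shared region, 1680 bp upstream of XTH24 and 3535 bp downstream of XTH18, had 164 and 73 reads against 23 and 0 and a mean ratio of 5.15 ± 2.80. XTH24 is the nearest gene of both, so XTH18 counts as bound only through regions closer to its neighbour. XTH19 (AT4G30290), the next gene of the cluster, had a single region with 20 and 9 reads against 21 and 0, a mean ratio of 0.69.

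Another region on chromosome 5 named both XTH22 and XTH25. XTH22 (AT5G57560) is TCH4, the touch-induced member of the family. The region at chr5:23306948-23307270 had 253 and 137 KAN1-FLAG reads against 46 and 3 control reads, a mean ratio of 3.98 ± 1.67 (SD, n = 2). The table places it 21 bp downstream of XTH22 and 687 bp upstream of XTH25 (AT5G57550). In the RefSeq gene models its centre falls within XTH22, in an exon outside the coding sequence, and the site printed above falls in this exon.

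XTH27 (AT2G01850, EXGT-A3), known for its part in leaf vein development, had 4 bound regions of 9 named. The highest, at chr2:380711-381053 and 4317 bp upstream, had 295 and 133 KAN1-FLAG reads against 28 and 1 control reads, a mean ratio of 7.38 ± 3.95 (SD, n = 2). The regions 3442 and 5034 bp upstream had 4.07 and 4.04, and all 3 upstream regions lay nearer to the pseudogene AT2G01840. The fourth, 270 bp downstream, had 386 and 232 reads against 82 and 1 and a mean ratio of 3.72, and there XTH27 is the nearest gene.

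XTH7 (AT4G37800) also had 4 bound regions, and they surround and enter the gene. The region at chr4:17776218-17776663, centred in an intron, had 416 and 208 reads against 63 and 1, a mean ratio of 4.88 ± 2.30 (SD, n = 2). A region 307 bp upstream had 212 and 82 reads against 32 and 0 and a mean ratio of 4.59. The regions 1030 and 3944 bp downstream had 4.08 and 3.76. On that side the next gene is HAT22 (AT4G37790), a homeodomain-leucine zipper factor, which is nearer to the more distant of the pair.

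The remaining bound XTH genes had 1 bound region each, apart from XTH28 with 2. XTH6 (AT5G65730) had 273 and 120 KAN1-FLAG reads against 30 and 5 control reads, 570 bp upstream, a mean ratio of 5.61 ± 3.09 (SD, n = 2). XTH28 (AT1G14720) had 146 and 94 reads against 22 and 0 in a region 1029 bp downstream, a mean ratio of 5.45 ± 1.67. That region lay 428 bp upstream of AT1G14710, which is the nearer gene. The second region of XTH28, 504 bp upstream and with XTH28 as its nearest gene, had only 40 and 14 reads against 8 and 0, a mean ratio of 3.38. This was the most thinly covered bound region of the family, and the 95% exact interval of its replicate 2 ratio, 0.69 to 4.81, reached below 1.

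XTH31 (AT3G44990), a member with mainly xyloglucan-hydrolysing activity, had 454 and 256 reads against 64 and 2 in a region 576 bp downstream, a mean ratio of 5.38 ± 2.12 (SD, n = 2). XTH32 (AT2G36870), of the same subgroup, had 157 and 87 reads against 31 and 1 in a region 632 bp downstream, a mean ratio of 3.81 ± 1.55. In both of these genes the bound region followed the gene. XTH30 (AT1G32170) had 212 and 122 reads against 33 and 0 in a region 3118 bp upstream, a mean ratio of 5.06 ± 1.93. XTH33 (AT1G10550), which carries a membrane anchor, had 150 and 40 reads against 23 and 0 in a region 1134 bp upstream, a mean ratio of 4.13 ± 3.38. After scaling, the XTH33 ratios were 4.88 and 2.62, still well apart. XTH4 (AT2G06850), a gene of vascular tissue and wood, had 142.25 and 72 reads against 32 and 1 in a region 116 bp upstream, a mean ratio of 3.25 ± 1.51.

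The regions closest to the threshold show how the count of 20 depends on it. Just above 3 lay XTH17 (44 and 25 KAN1-FLAG reads against 11 and 0 control reads, mean ratio 3.14), XTH9 (278 and 136 against 66 and 1, 3.09) and EXPA5 (3.05). Just below lay regions of EXPA6 (108 and 60 against 29 and 0, 2.90), XTH30 (75 and 23 against 18 and 0, 2.72) and XTH7 (101 and 35 against 23 and 2, 2.72), members that were bound in another region. XTH17, XTH9 and EXPA5 had no other bound region.

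For 19 named members no region reached a mean ratio of 3. The highest of them were EXPA15 with 164 and 78 KAN1-FLAG reads against 44 and 3 control reads, a mean ratio of 2.57, and XTH8 with 127 and 57 reads against 35 and 1, a mean ratio of 2.56. EXPA12, EXPA10, EXPA16, EXPA4 and XTH15 had between 2.35 and 2.08. In 5 of these 19 members, EXPA15, XTH8, EXPA12, EXPA4 and XTH15, the replicate 1 ratio of the highest region was at least 3, and in 0 the replicate 2 ratio. EXPA10 is known for its effect on leaf and pedicel size. EXPA17, XTH16, XTH5, EXPA9, EXPA14, EXPA2, XTH23, XTH20 and EXPA7 had between 1.97 and 1.35. EXPA7 and EXPA18 are the root hair expansins, and the first had 59 and 30 reads against 32 and 1 while the second was named by no region. EXPA11, EXPA20 and XTH19 stayed below 1, with 0.80, 0.76 and 0.69. Low ratios here are ratios in called regions, and places that were not called have no value.

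Over regions in place of genes, 31 of the 132 member regions were bound, 23.5% against 18.8% of all regions. The median mean ratio was 1.90 over member regions and 1.62 over all regions. Among bound regions, which were chosen by this ratio, the medians were 4.08 and 4.07. The other 101 member regions ranged from 0.52 to 2.90, of which 29 lay between 2 and 3 and 15 below 1. The table holds 13 members bound in 1 region and 7 bound in several, against 8.62% of all genes bound in several. Without KAN1-FLAG replicate 1 the count of member regions was 13, against 7.37% of all regions, and without KAN1-FLAG replicate 2 it was 49, against 31.8%. Without control replicate 1 only regions with a read in control replicate 2 have a ratio, and all 56 such member regions passed, as did 100% of all such regions.

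The ratios of the replicates were also compared after scaling both libraries to the same total, which sets their typical levels equal by construction. Both ratios of a region have the same denominator, the summed control reads. They are therefore not independent, and the SD between them holds no separate control error. The median ratio of the bound member regions was 5.81 in replicate 1 and 2.80 in replicate 2 before scaling, and 4.35 and 4.21 after it. Replicate 1 had more reads over the called regions. Its unscaled ratio was the higher in 31 of 31 bound member regions and in 4161 of the 4166 bound regions of the table. Both unscaled ratios were at least 3 in 13 member regions, 9.85% of the 132 against 7.37% of all regions. After scaling, both were at least 3 in 27 of the 31, which is 87.1% against 84.7% of all bound regions. The lower limit of the 95% exact interval was at least 3 in 26 of the 31 in replicate 1 and in 4 in replicate 2. In replicate 2 it was above 1 in 29, the exceptions being regions of XTH28 and XTH27. These regions were chosen by the same ratios, and the limits were not counted over all bound regions. The unscaled ratios had medians of 2.18 in replicate 1 and 1.09 in replicate 2 over all regions, so 1 is not a background level.

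**Figure D2:**
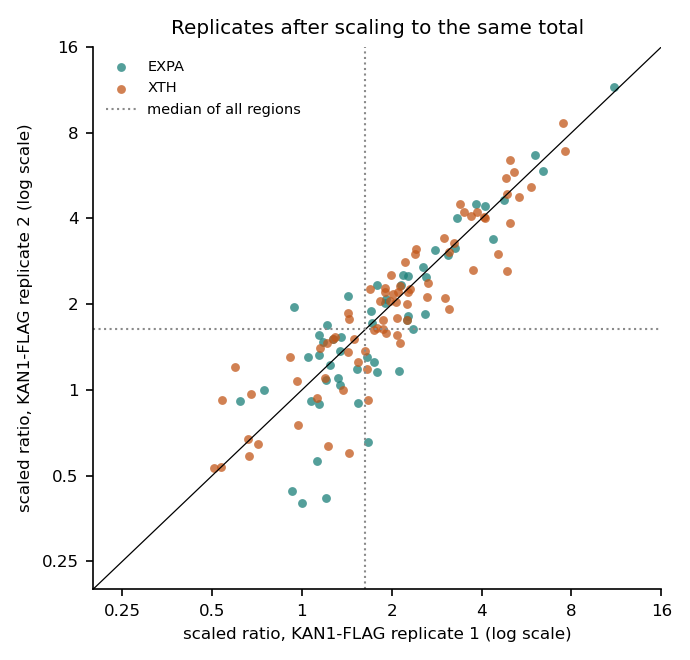
Ratio of KAN1-FLAG to control reads in replicate 2 against replicate 1 (both log scales) for the regions of the members, after both libraries were scaled to the same total. Points follow the diagonal up to the EXPA1 region at 11.1 and 11.6, and dotted lines mark the medians of all regions, 1.63 and 1.64. Both ratios of a region share the same control reads, which by itself spreads points along the diagonal.

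The bound regions lay on both sides of the wall genes. The 31 regions formed 34 pairs with a member, since 3 of them name 2 members. Of these pairs, 19 lay upstream of the member (55.9% against 59.4% of all pairs of a bound region and a gene), 13 downstream (38.2% against 34.4%) and 2 overlapped it, in XTH7 and EXPA5. Within 1 kb upstream lay 23.5% of the members' pairs against 21.8% of all pairs, and within 1 kb downstream 17.6% against 12.5%. Without KAN1-FLAG replicate 1, 8 of 15 pairs lay upstream (53.3%), and without control replicate 1, 32 of 57 (56.1%). Without control replicate 1 every member region with a ratio passed. The 56.1% therefore describes called regions with a read in control replicate 2 and not bound regions. Under the gene models of RefSeq, 18 of the 34 lay upstream.

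Distance sets apart genes with a region at the gene from those with a region closer to a neighbour. The member was the nearest gene in 18 of the 34 pairs, 52.9% against 47.3% of all pairs, while 12 of the 34 lay beyond 3 kb, 35.3% against 22.7%. By gene, 14 members were the nearest gene of a bound region against 14.5% of all genes, 17 were overlapping or within 3 kb against 22.2%, and 12 had a bound region upstream against 16.4%. The 6 members bound only through regions nearer to another gene were EXPA1, EXPA3, XTH6, XTH18, XTH25 and XTH30. The centre of the region was intergenic in 26 of the 31, in an exon outside the coding sequence in 4, in an intron in 1 and in coding sequence in 0.

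**Figure D3:**
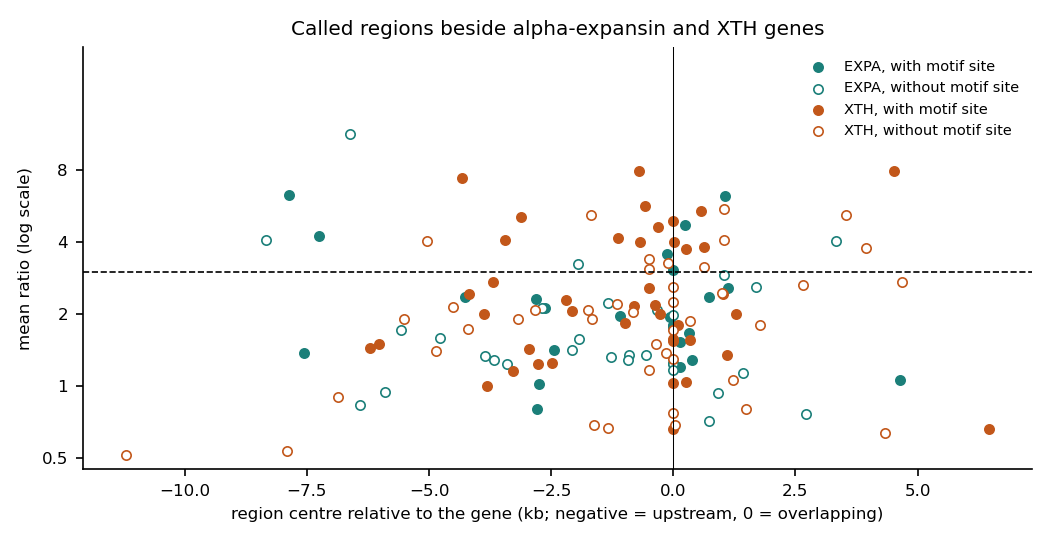
Mean ratio (log scale) of each pair of a called region and a member against the distance of the region's centre from the gene in kb, with upstream to the left, filled points for regions with a motif site, open points for regions without, and a dashed line at 3. Bound pairs lie on both sides of the genes, the highest of them the EXPA1 region without a site, 6626 bp upstream. An EXPA17 pair of unknown side, 5852 bp from the gene and with a mean ratio of 1.25, is drawn at the place of overlapping regions.

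A VGAATAW site on either strand was present in 18 of the 31 bound member regions, 58.1% against 69.8% of all bound regions and 47.7% of all called regions. In windows of the same size 1000 bp beyond each end, 33.9% of those at bound member regions held a site, against 35.9% at all bound regions. Of member regions that were not bound, 43.6% held a site. Longer regions have more room for a site, and median lengths were 323 bp for bound member regions, 354 bp for all bound and 250 bp for all called regions. In windows of 300 bp at the region centres, 54.8% of bound member regions and 48.5% of unbound ones held a site. The shares in these windows were 65.5% for all bound and 50.3% for all called regions. Without KAN1-FLAG replicate 1, 9 of the 13 bound member regions left held a site, 69.2%. The share over all bound regions was not computed at this stricter cut, so the 69.8% above is not its counterpart. A match describes the sequence only and is not a measured contact.

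The 18 regions held 33 sites, of which 11 read AGAATAA and another 11 read AGAATAT. The spelling CGAATAT occurred 4 times and CGAATAA 3 times, while GGAATAA and GGAATAT each occurred at 2 sites. The XTH31 region held 4 sites, the most of any, and XTH24 held 2 in its highest region. The highest XTH30 region held 3, of which 2 overlap on opposite strands around the same bases. The highest EXPA1 region held none, while the EXPA1 region 1050 bp downstream held 3. Bound regions with a site had a median mean ratio of 4.65 (range 3.05 to 7.87) and those without of 4.03 (range 3.09 to 11.3), ranges that overlap throughout most of their length.

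The number of called regions differed between members and other genes. Members had a median of 3 regions and all genes 2. Among genes with 1 region, 1 of 7 members was bound against 8.60% of all genes, and among those with 2 regions, 4 of 11 against 22.5%. Among genes with 3 to 4 regions it was 2 of 7 against 43.7%, and among those with 5 or more, 13 of 14 against 77.1%. Most of the bound members thus fell in the group with the most regions. The part of the region number in the members' share was not tested.

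Other genes of wall loosening and wall building gave a count for comparison, from a list of 39 genes in 5 groups. A bound region lay beside 8 of them, 20.5% of the list against 19.7% of the protein-coding genes of the reference. Of the 27 named by any region, this was 29.6% against 25.4% of all genes named, so the list lay near the background on either base. Without KAN1-FLAG replicate 1 the count was 3 of the 27 named, at a setting where 11.5% of all genes named were bound. Of 7 other alpha-expansins 0 were bound, and 5 of these were named by no region. Of 10 beta-expansins and expansin-like genes only EXPB3 (AT4G28250) was, with 124 and 49 KAN1-FLAG reads against 26 and 0 control reads and a mean ratio of 3.33. Of the 11 XTH genes outside the members only XTH14 (AT4G25820) was, with 113 and 39 reads against 17 and 1 and a mean ratio of 4.22.

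Genes that build the polymers or acidify the wall made up the rest. GH9A1 (AT5G49720), the membrane-bound cellulase KORRIGAN, had 228 and 88 reads against 28 and 1 in a region 297 bp upstream, a mean ratio of 5.45. CESA6 (AT5G64740), a subunit of primary wall cellulose synthase, had a mean ratio of 4.06 in a region 4311 bp upstream. Of the other primary wall cellulose synthase genes on the list, CESA1 had no mean ratio above 1.5 and CEV1 was named by no region. XYL1 (AT1G68560), the xyloglucan alpha-xylosidase, had 3.96, and CSLC04 (AT3G28180), which makes the glucan backbone of xyloglucan, had 3.70. The xylosyltransferases of xyloglucan, XT1, XT2 and XXT5, had no region above 1.41. Both plasma membrane proton pumps on the list, HA1 (AT2G18960) and HA2 (AT4G30190), had a bound region. Their highest regions had mean ratios of 7.59 and 5.38 and lay 10118 and 9526 bp upstream. HA1 was named by 6 regions and HA2 by 9, and only the highest of each is described here.

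**Figure D4:**
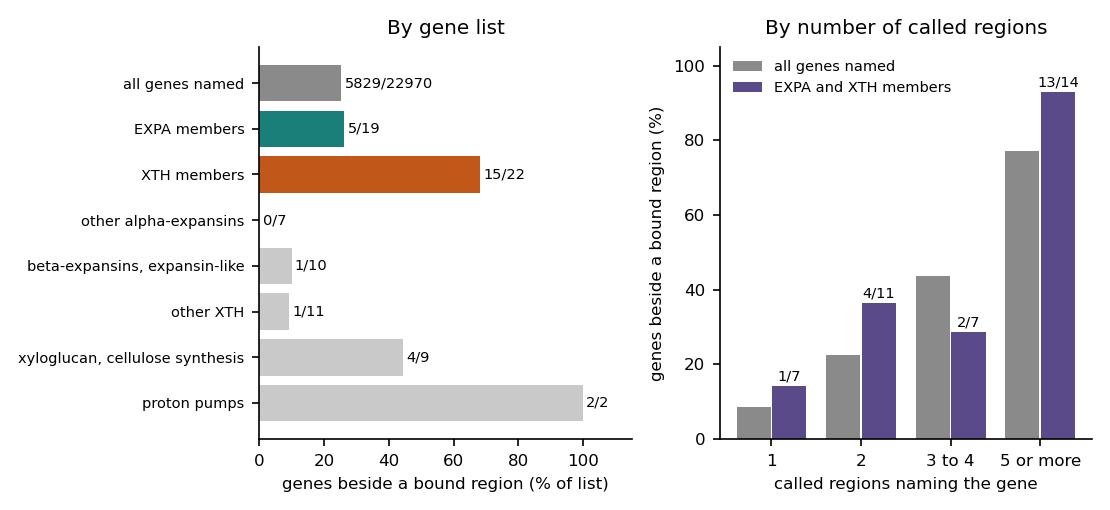
Left, share of genes beside a bound region (%) in each list and in all genes named by the table, with counts at the bars. Right, the same share by the number of called regions that name the gene, for all genes (grey) and for the EXPA and XTH members (purple). The XTH members stand at 15 of 22 and the EXPA members at 5 of 19, and members with 5 or more regions at 13 of 14.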

How the data were processed

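Binding was measured by ChIP-Seq in 2 KAN1-FLAG and 2 control libraries, grouped by their sample titles. The authors mapped the reads to TAIR10, heuristically thinned duplicates, called enriched regions and deposited, for every region and library, an estimated count that is not scaled for depth. The file also holds region sizes and other distances in bp to the closest genes. The deposited false discovery rates and ranks hold the authors' own comparison and were not used. The mapping and calling parameters are not given in the sources used here. The table has 22109 regions, of which 22103 on the 5 chromosomes were kept, and 731 of these hold a fractional count in KAN1-FLAG replicate 1. In 80 regions the name of the right-hand gene is cut off in the file, and in 0 of these is the next gene of the reference a member. Unused columns of sample values numbered 0.

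From these counts the ratio of KAN1-FLAG reads to the summed control reads was computed per replicate, without pseudocount, and a mean ratio of at least 3 was called bound, after the study's 3-fold limit. No count model was fitted, since the same contrast had selected the regions and sums over them do not give library depth. Ratio intervals are exact Clopper-Pearson intervals at 95% and, since PCR reads are not independent molecules, cover counting error only. Nothing states that the libraries came from separate cultures, so the SD between replicates may be technical. The members, the lists and the sum of both controls as denominator were chosen with earlier results of these data known. The breakdowns by family, by number of regions per gene, by flanking windows and by interval limits were chosen after the data were seen.

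All members with a bound region were named with the reads in their highest region, together with the 3 regions just above and the 3 just below a mean ratio of 3. Sites were searched in RefSeq TAIR10.1, and all 22103 regions lay within its chromosome lengths. Its gene models differ from those of the table: 30.9% of all distances lay within 1 bp, and 11 of the 121 member distances compared, with a median difference of 67 bp. All 41 members and 39 other wall genes matched a locus there. Computation used Python 3.11.15, scipy 1.17.1, numpy 2.4.6, pandas 2.3.3 and matplotlib 3.10.9. The motif search, the ratio call and the intervals were checked on simulated data. There 1000 of 1000 planted sites were found, and 959 of 1000 intervals held the simulated ratio. Of simulated regions, 200 of 200 at ratio 6 and 0 of 21903 at ratio 1.5 were called. Regions with few control reads were not among those at ratio 6, and the control reads carried no simulated error. The assignment of genes, positions, distances and flanking windows was not simulated. Alternatives covered the threshold, the replicates, the controls, the scaling, a pseudocount of 10 reads, a minimum of 10 control reads, the assignment of genes, the search window and the gene models.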

Additional observations from a re-analysis of the deposited data

How the results depend on the processing

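With a threshold of 2 in place of 3, members numbered 27 (44.6% of all genes), bound member regions 60 (8400 of all 22103 regions), those with a motif site 32 and pairs upstream 38; with a threshold of 4, members numbered 12 (14.8% of all genes), regions 20 (9.90% of all regions) and other wall genes 5. A ratio of at least 3 in both replicates gave 10 members (11.5% of all genes) and 13 regions (7.37% of all regions). It gave 9 regions with a site, 8 pairs upstream and 3 other wall genes. Since replicate 1 was almost always the higher, this rule nearly repeats leaving out replicate 1 and is not a separate check. Leaving out a library gave 10 to 26 members, where 11.5% to 100% of all genes with a ratio passed. It gave 13 to 56 regions, where 7.37% to 100% of all regions with a ratio passed. Without KAN1-FLAG replicate 2, 26 members passed against 38.7% of all genes. The median highest ratio was 1.74 to 90.25, with 9 to 27 regions with a site, 8 to 32 pairs upstream and 3 to 12 other wall genes. The upper ends for regions, median, regions with a site, pairs and other wall genes came without control replicate 1. There 26 members have a ratio and 100% of genes with a ratio pass.

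The replicate numbers in the titles give no shared culture or day, and with 2 numbers the pairing could not be checked further. With each replicate against its same-numbered control as a replicate block, 26 members, 56 regions and 32 pairs upstream passed and the median was 29.61, but 99.1% of genes with a ratio passed as well. Limiting genes to 3 kb left 11 pairs upstream, and the nearest gene alone left 18 regions, 11 with a site and 9 pairs upstream.

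With 10 reads added to each library 16 members passed against 18.6% of all genes, and 23 regions against 12.8% of all regions. The 8 regions lost belong to EXPA1, XTH27, XTH28, XTH4, EXPA8, XTH17, XTH9 and EXPA5, with 8 to 67 control reads. Scaling the replicates to the same total kept all 31 member regions. Over the whole table it gave 4166 regions, the main count, of which 4045 were the same regions. The mean ratios were also followed with 10 reads added, with control replicate 2 left out and with the replicates scaled. Under each, the mean ratio of each of the 34 named regions moved by less than 1 SD. This SD includes the difference in read totals between the replicates and is wide, so it says nothing about stability. Low read numbers limit the single ratios: bound member regions had between 8 and 83 control reads.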
